A study of Mus musculus with 20 samples.

Results

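Transcripts of 6 families of small secreted proteins of the epididymis were followed in RNA of cauda epididymosomes: the cysteine-rich secretory proteins (Crisp), Kazal-type protease inhibitors (Spink), WAP four-disulfide core proteins (Wfdc), cystatins (Cst), beta-defensins (Defb) and lipocalins (Lcn). Members were the protein-coding entries whose gene symbol begins with 1 of these names, without Crisp2, a sperm protein. The deposited data are 2 tables, 1 labelled as size-selected and 1 as not, called the selected and the unselected table below. Such entries numbered 68 in the selected table and 48 in the unselected table, and all 48 were in both. The 31 described here were chosen by a mean of 5 or more counts per library in the selected table. They comprised 2 Crisp, 5 Spink, 9 Wfdc, 1 Cst, 12 Defb and 2 Lcn genes, among 18357 protein-coding entries and 72034 entries of all kinds. Since the mean count chose them, their levels are a description. Wfdc17 was just inside the threshold at a mean of 6.4 counts and Defb48 just outside it at 4.9. The 17 genes of both tables below the threshold held 307 counts together, and the 20 genes of 1 table held 93.5, against 118845 for the 31.

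The vesicles came from the cauda, the distal part of the duct, of male mice aged 9 months, and were pelleted by ultracentrifugation once sperm had swum up and been removed. The MSUS group held 5 males (animals 2, 4, 6, 8 and 14) whose litters were separated from the dam at unpredictable times for 3 h a day over the first 2 weeks of life, with the dams also stressed by forced swim or restraint. The Control group held 5 males of undisturbed litters (animals 3, 5, 7, 9 and 11). No strain or genotype is given in the labels, and whether animals shared a litter is not stated, so the p-values reflect only how far these animals differ. Each small RNA library was run 2 times, and a size range rich in microRNAs was selected for 1 of the runs. The tables keep the names of their labels, although microRNAs took the larger share of the unselected one. Values per library follow the order of animals just given.

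As the epididymal duct carries sperm from the testis, its epithelium secretes proteins that coat the sperm surface, restrain proteases and bacteria, and bind small lipophilic molecules. Many are encoded in clusters of related genes, each with its own place along the duct, and in the mouse Crisp1 is a well known product of the distal regions. Epididymosomes are vesicles of this epithelium that carry protein and RNA, and fragments of messenger RNA are part of their small RNA. The values below are counts on such fragments, not protein.

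The coding sequences of 4 beta-defensins in 1 cluster are shown because their transcripts are alike in part. They are read from the GENCODE vM21 annotation of GRCm38, from the start codon, in coding direction, and the capitals mark the first 56 bases, which are identical in all 4.
Defb2: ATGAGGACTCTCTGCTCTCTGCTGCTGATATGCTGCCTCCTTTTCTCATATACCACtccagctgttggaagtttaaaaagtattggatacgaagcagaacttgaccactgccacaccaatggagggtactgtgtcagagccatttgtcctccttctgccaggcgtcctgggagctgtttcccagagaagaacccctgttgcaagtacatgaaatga
Defb11: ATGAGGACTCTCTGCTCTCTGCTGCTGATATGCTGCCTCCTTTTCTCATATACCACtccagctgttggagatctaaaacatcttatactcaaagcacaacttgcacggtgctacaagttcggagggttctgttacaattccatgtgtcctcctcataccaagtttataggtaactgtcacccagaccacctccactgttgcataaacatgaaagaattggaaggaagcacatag
Defb10: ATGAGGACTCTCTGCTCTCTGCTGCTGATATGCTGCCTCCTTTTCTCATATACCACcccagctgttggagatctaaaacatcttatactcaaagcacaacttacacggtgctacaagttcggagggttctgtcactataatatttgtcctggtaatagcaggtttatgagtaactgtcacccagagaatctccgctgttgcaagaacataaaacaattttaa
Defb9: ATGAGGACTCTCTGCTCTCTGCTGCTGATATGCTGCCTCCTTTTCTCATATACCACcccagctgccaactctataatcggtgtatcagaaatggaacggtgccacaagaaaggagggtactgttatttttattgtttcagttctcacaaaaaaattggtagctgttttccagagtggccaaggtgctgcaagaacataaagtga
The coding parts lie at chr8:21839959-21843426 (Defb2, plus strand), chr8:21905426-21906379 (Defb11, minus strand), chr8:21858928-21861962 (Defb10, plus strand) and chr8:21881792-21885394 (Defb9, minus strand). Beyond the capitals, Defb2 and Defb11 are identical up to base 69, and Defb11 and Defb10 have 32 words of 22 bases in common that start after base 56. The other pairs have 0 such words there. Over the whole transcripts, 50 to 94 of the 277 to 296 words of a gene also occurred in any 1 of the other 3. A fragment from a shared stretch cannot be placed in 1 gene, and the 4 levels are therefore uncertain by the share the counting method assigned.

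Shared runs are also shown for gene pairs of the Crisp and Wfdc families. Crisp1 and Crisp3, neighbours on chromosome 17, share this run of 57 bases at positions 227 to 283 of both coding sequences, the longest one between them.
Crisp1 and Crisp3: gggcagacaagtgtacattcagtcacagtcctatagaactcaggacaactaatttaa
They had 265 words of 22 bases in common, 19% of the words of either transcript. Wfdc6a and Wfdc6b share the run of 67 bases below, at positions 1 to 67 of the Wfdc6a coding sequence and 31 to 97 of that of Wfdc6b.
Wfdc6a and Wfdc6b: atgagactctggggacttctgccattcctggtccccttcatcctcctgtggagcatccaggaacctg
The 463 words common to Wfdc6a and Wfdc6b were 54.7% of those of Wfdc6a and 48.1% of those of Wfdc6b, the highest shares among the 31 genes. Values of 10 of the 31 genes were whole numbers in every library (to within 1e-06), and those of 21 were not, and no source used here gives how reads were divided between entries.

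The selected table held 1872084 to 3647956 counts per library and the unselected table held 215231 to 871461. In the first, protein-coding entries took 7.48 to 25.2% of the counts of MSUS libraries and 19.7 to 31.6% of those of Control libraries. In the second they took 5.89 to 9.44% in MSUS and 9.40 to 13.6% in Control libraries. Transfer RNA took 23.8% of counts in MSUS 14, 25.3% in Control 11 and 14.5% in Control 9 of the selected table, against 34.6 to 66.0% in the other 7 libraries, so these 3 stood apart. Markers of epididymal epithelium were present (7 of 7 genes, 310.6 to 1794 CPM in MSUS and 773.4 to 2562 CPM in Control libraries, summed over the list). Their levels were uneven, with Cd52 holding 21079 of the 32753 counts of the list. Ces5a had 5366, Adam7 4623, Aqp9 1437.5, Gpx5 172, Rnase9 52.2 and Rnase10 23 counts, the last in 7 of 10 libraries. Markers of sperm summed to 198.9 to 465.3 CPM in MSUS and 246.9 to 440.3 CPM in Control libraries, and those of smooth muscle and stroma to 147.7 to 1061 CPM in MSUS and 310.1 to 1024 CPM in Control libraries. Blood cell markers reached 46.1 to 188.4 CPM in MSUS and 110.2 to 261 CPM in Control libraries. Of 9 seminal vesicle and prostate genes, 6 were listed with 187 counts in all. Svs1 had 118 of them, with counts in all 10 libraries, Svs2 33, Svs4 22, Pate4 10, Svs5 3 and Svs3a 1. These are levels in RNA of vesicle pellets, and which cells gave the RNA, or how much each gave, cannot be told from them. CPM are counts scaled to a library total of 1000000 over all RNA classes.

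The highest of the 31 genes, which a high mean count chose, were Crisp, Spink, Wfdc and Defb genes. In CPM per kilobase of exon, averaged over the 10 libraries of the selected table, 7 of the 31 genes were among the 20 highest of 17580 protein-coding entries with a known length, and 21 were among the upper 500. Crisp1 ranked 2, Spink8 4, Wfdc15b 6, Wfdc10 9, Defb28 12, Defb43 15 and Defb2 19. The order of levels ran from Crisp1 at 1514 CPM per kilobase through Spink8 (830.2), Wfdc15b (408), Wfdc10 (367), Defb28 (306), Defb43 (282), Defb2 (243) and Defb11 (153) down to Lcn2 (3.54) and Defb30 (2.42). Crisp1 alone held 50.4% of the counts of the 31 genes, and Crisp1 with Spink8 66.6%. All but Wfdc13 had a count in each of the 10 libraries of that table, and 16 of the 31 did so in the other, where Crisp1 held 53.1%. On the CPM scale MSUS 8 was the lowest library for 26 of the 31 genes and Control 9 the highest for 26, the libraries with the lowest and the highest protein-coding share.

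**Figure D1:**
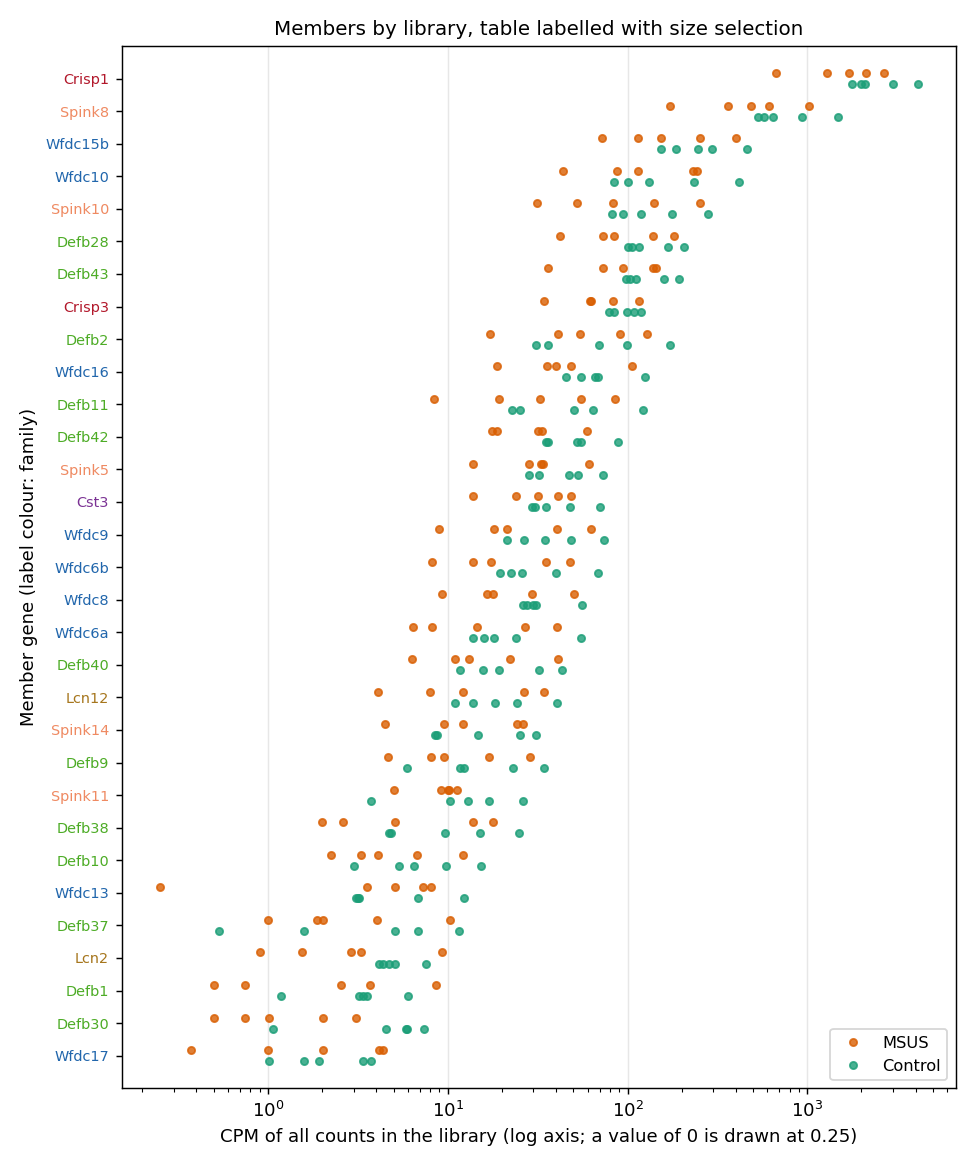
Level of each of the 31 genes in each library of the selected table (CPM of all counts, log axis), with MSUS libraries drawn above Control libraries and genes in order of mean CPM. Levels run from 0 for Wfdc13 in MSUS 8 to 4106 CPM for Crisp1 in Control 9, and the groups overlap for every gene.

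The Crisp proteins come first as sperm coat proteins: in rodents Crisp1 binds the sperm head during transit and takes part in interaction with the egg. Crisp1 (chr17:40293758-40319207 in GRCm38) had 2119, 1286, 1709, 669.9 and 2680 CPM in MSUS libraries, against 1770, 1997, 2103, 4106 and 2994 CPM in Control libraries. Its lowest library was MSUS 8 and its highest Control 9, 3 MSUS libraries lay below all Control libraries, and the groups overlapped. Groups were compared after TMM scaling, which sets the bulk of entries equal between libraries, and also by library size alone, which keeps a gene's share of all counts. The log2 fold change of MSUS over Control was -0.04 ± 0.21 after TMM scaling (SE; edgeR adjusted p = 1.00) and -0.62 when scaled by library size alone. The unselected table gave Crisp1 973, 993, 898, 613 and 1210 CPM in MSUS libraries, against 1065, 1040, 1137, 1569 and 1351 CPM in Control libraries. There 4 MSUS libraries lay below the lowest Control library and MSUS 14 lay among the Control libraries. For Crisp1 the TMM-scaled log2 fold change was -0.14 ± 0.20 (SE; edgeR adjusted p = 0.789), against -0.39 by library size alone.

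Crisp3 (chr17:40221777-40242288 in GRCm38), an androgen-dependent relative of Crisp1 first known from mouse salivary gland, had 83.0, 62.3, 62.1, 34.4 and 116 CPM in MSUS libraries, against 78.8, 99.3, 84.5, 119 and 108 CPM in Control libraries. Again MSUS 8 was lowest and Control 9 highest. The difference between groups in Crisp3 was 0.10 ± 0.11 on the TMM-scaled log2 scale (SE; edgeR adjusted p = 0.956) and -0.45 by library size alone. In TMM-scaled CPM Crisp3 had the smallest spread of the 28 genes tested in that table with a count in every library, 69.3 to 90.5 TMM-scaled CPM, or 1.31-fold over all 10 libraries. Crisp1 followed at 1.52-fold. Crisp3 had 122, 156, 137, 89.4 and 208 CPM in MSUS libraries, against 115, 139.7, 182, 227 and 180.3 CPM in Control libraries of the unselected table. These levels were higher than in the other table, and the groups overlapped. After TMM scaling the log2 fold change of Crisp3 was 0.02 ± 0.23 (SE; edgeR adjusted p = 0.986), and by library size alone -0.23.

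Protease inhibitors followed, with the Spink family led by Spink8 (chr9:109812280-109826633 in GRCm38), a Kazal-type inhibitor of the epididymis. Its levels were 613, 363, 488, 173 and 1016 CPM in MSUS libraries, against 644, 573, 534, 1477 and 934 CPM in Control libraries. MSUS 14 exceeded 4 of the 5 Control libraries, and MSUS 8 was lowest. Spink8 had a TMM-scaled log2 fold change of -0.11 ± 0.21 (SE; edgeR adjusted p = 0.996), and -0.65 by library size alone. Spink8 had 177, 137, 154, 122 and 278 CPM in MSUS libraries, against 201, 241, 201, 476 and 268 CPM in Control libraries of the unselected table. MSUS 14 lay above all Control libraries but Control 9, and the other 4 MSUS libraries lay below all Control libraries. For Spink8 the TMM-scaled log2 fold change was -0.38 ± 0.24 (SE; edgeR adjusted p = 0.593), against -0.67 by library size alone.

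Spink10 and Spink14 are less studied members of the Kazal family on chromosome 18. Spink10 had 139.8, 52.2, 82.7, 31.5 and 254 CPM in MSUS libraries, against 119.6, 94.8, 81.5, 279.6 and 177 CPM in Control libraries. MSUS 14 and Control 9 were well above the rest of their groups. The difference between groups in Spink10 was 0.06 ± 0.27 on the TMM-scaled log2 scale (SE; edgeR adjusted p = 1.00) and -0.43 by library size alone. A non-coding transcript of Spink10 was counted apart, and the protein-coding entry held 73.2% of the gene's counts. Spink10 also overlaps Spink13 on the opposite strand over 60536 bases, in which no exons of their protein-coding transcripts coincide. The strand used in counting is not stated. Spink10 had 22.8, 23.9, 43.0, 33.0 and 55.3 CPM in MSUS libraries, against 47.3, 16.8, 48.3, 71.6 and 38.8 CPM in Control libraries of the unselected table. The groups overlapped fully. After TMM scaling the log2 fold change of Spink10 was 0.03 ± 0.30 (SE; edgeR adjusted p = 0.977), and by library size alone -0.26.

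Spink14 had 24.3, 9.49, 12.2, 4.49 and 26.2 CPM in MSUS libraries, against 14.7, 8.55, 8.68, 30.8 and 25.2 CPM in Control libraries. Its highest values, in MSUS 2, MSUS 14, Control 9 and Control 11, are those of the 4 deepest libraries. Spink14 had a TMM-scaled log2 fold change of 0.35 ± 0.27 (SE; edgeR adjusted p = 0.919), and -0.21 by library size alone. This was the largest positive estimate among the 28 tested genes, and the TMM-scaled value without MSUS 2 was 0.12. Spink14 had 13.9, 13.4, 5.56, 0 and 9.81 CPM in MSUS libraries, against 2.75, 12.5, 3.41, 4.76 and 8.03 CPM in Control libraries of the unselected table. These 34 counts did not pass the filter on low counts. Of the 2 other Spink genes, Spink5, which encodes the LEKTI inhibitor of skin proteases, averaged 34.1 ± 17.3 CPM in MSUS and 46.8 ± 18.1 CPM in Control libraries. Spink11 averaged 9.10 ± 2.38 CPM in MSUS and 14.0 ± 8.33 CPM in Control libraries (SD, n = 5 each).

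Cst3 (chr2:148871722-148875692 in GRCm38) encodes cystatin C, a secreted inhibitor of cysteine proteases made in many tissues. It had 41.0, 31.6, 24.1, 13.8 and 48.4 CPM in MSUS libraries, against 30.8, 35.2, 29.4, 70.2 and 47.9 CPM in Control libraries. The groups overlapped, with MSUS 8 lowest and Control 9 highest. For Cst3 the TMM-scaled log2 fold change was 0.17 ± 0.14 (SE; edgeR adjusted p = 0.924), against -0.43 by library size alone. The unselected table gave it 27.1, 8.04, 12.7, 14.8 and 32.7 CPM in MSUS libraries, against 10.6, 5.21, 13.1, 26.2 and 25.8 CPM in Control libraries. The ranges of the groups overlapped, and with 90.8 counts over all 10 libraries it did not pass the filter there.

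Wfdc proteins carry the whey acidic protein fold, shared by several inhibitors of serine proteases and antibacterial proteins. Wfdc15b (chr2:164214454-164221660 in GRCm38) led them with 252, 115, 153, 71.8 and 399 CPM in MSUS libraries, against 246, 186, 154, 463 and 295 CPM in Control libraries. Within each group the libraries differed more than the groups did, with MSUS 14 and Control 9 high. The difference between groups in Wfdc15b was 0.08 ± 0.21 on the TMM-scaled log2 scale (SE; edgeR adjusted p = 1.00) and -0.44 by library size alone. The unselected table gave Wfdc15b 102, 45.6, 55.6, 25.3 and 126 CPM in MSUS libraries, against 93.5, 68.8, 44.4, 178 and 106 CPM in Control libraries. MSUS 8 was lowest and Control 9 highest there too. After TMM scaling the log2 fold change of Wfdc15b was -0.18 ± 0.33 (SE; edgeR adjusted p = 0.853), and by library size alone -0.47.

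Wfdc10 (chr2:164656046-164657368 in GRCm38) had 229.9, 87.7, 114, 43.6 and 244 CPM in MSUS libraries, against 131, 84.4, 100.4, 416 and 234 CPM in Control libraries. MSUS 2 and MSUS 14 lay at the level of Control 11, and Control 9 lay above all. Wfdc10 had a TMM-scaled log2 fold change of 0.17 ± 0.32 (SE; edgeR adjusted p = 0.996), and -0.43 by library size alone. In the unselected table it had 60.4, 42.9, 51.9, 27.4 and 68.0 CPM in MSUS libraries, against 35.8, 53.2, 47.8, 116 and 79.2 CPM in Control libraries. MSUS 8 was lowest and Control 9 again highest. For Wfdc10 the TMM-scaled log2 fold change was -0.14 ± 0.27 (SE; edgeR adjusted p = 0.853), against -0.43 by library size alone. The gene overlaps Wfdc9 on the opposite strand over 538 bases, in which no exons coincide.

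The other 7 Wfdc genes ranged from Wfdc16 to Wfdc17. Wfdc16 averaged 49.8 ± 33.3 CPM in MSUS and 72.0 ± 30.7 CPM in Control libraries, and Wfdc9 averaged 30.3 ± 21.4 CPM in MSUS and 41.1 ± 21.2 CPM in Control libraries. The near copies Wfdc6a and Wfdc6b averaged 19.3 ± 14.3 CPM and 24.4 ± 16.5 CPM in MSUS libraries, and 25.4 ± 17.1 CPM and 35.4 ± 20.1 CPM in Control libraries. Wfdc6a had 59.0 to 84.5% of the Wfdc6b count in MSUS and 60.1 to 80.7% in Control libraries, ranges that overlap. Wfdc8, whose exons overlap those of Wfdc6b on the opposite strand by 105 bases, averaged 24.7 ± 16.1 CPM in MSUS and 34.1 ± 12.4 CPM in Control libraries. As the strand used in counting is not stated, reads in those 105 bases are uncertain. Wfdc13 had no count in MSUS 8, which allows up to 1.12 CPM (3 counts of that library), and averaged 4.79 ± 3.22 CPM in MSUS and 5.73 ± 4.03 CPM in Control libraries. Wfdc17, known from activated mouse macrophages and microglia, averaged 2.39 ± 1.81 CPM in MSUS and 2.32 ± 1.18 CPM in Control libraries (SD, n = 5 each), and was the only 1 of the 31 with the higher mean CPM in MSUS.

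Beta-defensins are short cationic peptides that disrupt microbes, and several also coat sperm. Defb28 (chr2:152518255-152521447 in GRCm38) had 139, 72.7, 84.2, 41.9 and 181 CPM in MSUS libraries, against 115, 100.4, 106, 206 and 167 CPM in Control libraries. MSUS 2 and MSUS 14 lay within the Control range and the other 3 MSUS libraries below it. The difference between groups in Defb28 was 0.13 ± 0.15 on the TMM-scaled log2 scale (SE; edgeR adjusted p = 0.970) and -0.42 by library size alone. The unselected table listed Defb28 at 65.0, 45.6, 53.7, 46.5 and 58.9 CPM in MSUS libraries, against 66.0, 50.0, 51.2, 92.1 and 86.6 CPM in Control libraries. MSUS 4 and MSUS 8 lay below all Control libraries and the other 3 among them. After TMM scaling the log2 fold change of Defb28 was -0.12 ± 0.22 (SE; edgeR adjusted p = 0.846), and by library size alone -0.39.

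Defb43 (chr14:63011771-63018088 in GRCm38) had 139, 72.9, 94.4, 36.3 and 143 CPM in MSUS libraries, against 98.7, 103, 112, 195 and 159 CPM in Control libraries. The same 3 MSUS libraries as for Defb28 lay below the Control range. Defb43 had a TMM-scaled log2 fold change of 0.11 ± 0.15 (SE; edgeR adjusted p = 0.981), and -0.46 by library size alone. Defb43 had 18.6, 42.9, 44.9, 0 and 56.1 CPM in MSUS libraries, against 74.3, 40.7, 54.6, 90.5 and 62.0 CPM in Control libraries of the unselected table. It had no count in MSUS 8, which allows up to 12.7 CPM, and MSUS 2 rested on 4 counts. For Defb43 the TMM-scaled log2 fold change was -0.58 ± 0.36 (SE; edgeR adjusted p = 0.592), against -0.85 by library size alone. This was the most negative estimate of the 9 genes tested in that table, and without MSUS 8 it was -0.38.

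Defb42 (chr14:63046991-63058149 in GRCm38) had 18.8, 33.5, 32.0, 17.6 and 59.3 CPM in MSUS libraries, against 54.8, 36.3, 35.3, 88.7 and 52.7 CPM in Control libraries. MSUS 14 exceeded all Control libraries but Control 9, and the other 4 MSUS libraries lay below all of them. The difference between groups in Defb42 was -0.14 ± 0.20 on the TMM-scaled log2 scale (SE; edgeR adjusted p = 0.980) and -0.73 by library size alone. The unselected table gave it 3.10, 36.6, 8.33, 12.7 and 20.6 CPM in MSUS libraries, against 22.9, 27.1, 17.1, 44.2 and 17.6 CPM in Control libraries. MSUS 4 was highest of the MSUS libraries there, and MSUS 2, on 0.667 counts, lowest. Its neighbour Defb30, which it overlaps on the opposite strand over 2970 bases with no shared exon, had 3, 1, 4, 2 and 9 counts in MSUS libraries, against 9, 2, 15, 21 and 27 counts in Control libraries. Defb30 averaged 1.48 ± 1.08 CPM in MSUS and 4.97 ± 2.40 CPM in Control libraries (SD, n = 5 each). It did not pass the filter on low counts. Tested with no filter, its log2 fold change was -1.29 ± 0.31 (SE; edgeR adjusted p = 0.107), and it was 0.11 ± 0.90 in the unselected table (SE; edgeR adjusted p = 0.946). It was named after its values were seen.

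The 4 defensins whose sequences are shown above differed in level although they share a leader. Defb2 averaged 66.5 ± 43.7 CPM in MSUS and 81.6 ± 57.8 CPM in Control libraries, and Defb11 40.3 ± 30.8 CPM in MSUS and 56.8 ± 40.2 CPM in Control libraries. Defb9 averaged 13.6 ± 9.48 CPM in MSUS and 17.5 ± 11.2 CPM in Control libraries, and Defb10 5.70 ± 3.95 CPM in MSUS and 7.99 ± 4.78 CPM in Control libraries (SD, n = 5 each). Either SD exceeded the difference of the means for each of the 4. Per length the order was Defb2 (243 CPM per kilobase), Defb11 (153), Defb9 (50.0) and Defb10 (23.0). Defb11 had 46.7 to 66.5% of the Defb2 count in MSUS and 63.0 to 82.1% in Control libraries, ranges that overlap. Among the remaining defensins, Defb40 averaged 18.8 ± 13.7 CPM in MSUS and 24.4 ± 13.0 CPM in Control libraries. Defb38 averaged 8.27 ± 7.14 CPM in MSUS and 11.8 ± 8.48 CPM in Control libraries, and Defb37 3.86 ± 3.80 CPM in MSUS and 5.10 ± 4.39 CPM in Control libraries. Defb1, a constitutive defensin of many epithelia, averaged 3.22 ± 3.30 CPM in MSUS and 3.47 ± 1.72 CPM in Control libraries.

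Lipocalins carry small lipophilic molecules. Lcn12 (chr2:25490845-25493911 in GRCm38), a lipocalin of the mouse epididymis, had 26.6, 7.99, 12.2, 4.12 and 34.5 CPM in MSUS libraries, against 18.2, 13.9, 11.1, 40.6 and 24.4 CPM in Control libraries. MSUS 2 and MSUS 14 lay above 4 of the 5 Control libraries and MSUS 4 and MSUS 8 below all 5. After TMM scaling the log2 fold change of Lcn12 was 0.21 ± 0.28 (SE; edgeR adjusted p = 0.980), and by library size alone -0.34. Of the unselected table, Lcn12 had 9.29, 2.68, 5.56, 0 and 21.0 CPM in MSUS libraries, against 8.25, 6.25, 6.82, 14.3 and 10.3 CPM in Control libraries. These are 46 counts in all, and the 0 in MSUS 8 allows up to 12.7 CPM. Lcn2, which binds bacterial siderophores and is induced in inflammation, had 2.91, 1.54, 3.30, 0.904 and 9.25 CPM in MSUS libraries, against 5.11, 4.15, 4.73, 7.54 and 4.35 CPM in Control libraries. MSUS 14 was the highest of all libraries and the other 4 MSUS libraries lay below all Control libraries. Lcn2 had a TMM-scaled log2 fold change of 0.07 ± 0.27 (SE; edgeR adjusted p = 1.00), and -0.53 by library size alone. It had 1.16, 0, 2.41, 0 and 4.67 CPM in MSUS libraries, against 2.94, 2.61, 0, 6.75 and 1.91 CPM in Control libraries of the unselected table, from 12.7 counts in all. The protein-coding entry held 48.2% of the counts of the Lcn2 gene, and the rest lay on its non-coding and intron-retaining transcripts.

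Clusters are described by the family genes with an entry in the selected table, and annotated genes without an entry are not counted. Within the clusters, single genes stood far above the others. In the beta-defensin cluster of chromosome 2, Defb28 had 306 CPM per kilobase, while Defb20, Defb22, Defb26, Defb29, Defb21 and Defb25 had between 0.092 and 1.09. Defb22, known in the mouse as a sperm coat defensin, had 2 counts over all 10 libraries. Of the 4 cystatin genes with an entry in the cluster of chromosome 2, Cst3 had 40.4 CPM per kilobase and Cst8, Cst11 and Cst12 between 0.087 and 0.377. Lcn12 had 24.5, against 0.022 to 0.601 for Lcn5, Lcn6, Lcn8 and Lcn10 in its cluster. Wfdc15b had 408, against 0.628 for its neighbour Wfdc15a. By contrast, 7 of the 10 genes with an entry in the larger Wfdc cluster of chromosome 2 were above the threshold. In the defensin clusters of chromosome 8, 5 of 8 and 3 of 6 genes with an entry were. These are not shares of all annotated genes of the clusters. Genes known from the initial segment and caput of the mouse epididymis (Cst8, Cst11, Cst12, Lcn5, Lcn6, Lcn8, Lcn9, Lcn10 and Defb41) held 32.3 counts together, from 8 of the 9. Of the 2 members listed as typical of corpus and cauda, Crisp1 held 59913 counts and Defb22 the 2 just given.

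**Figure D2:**
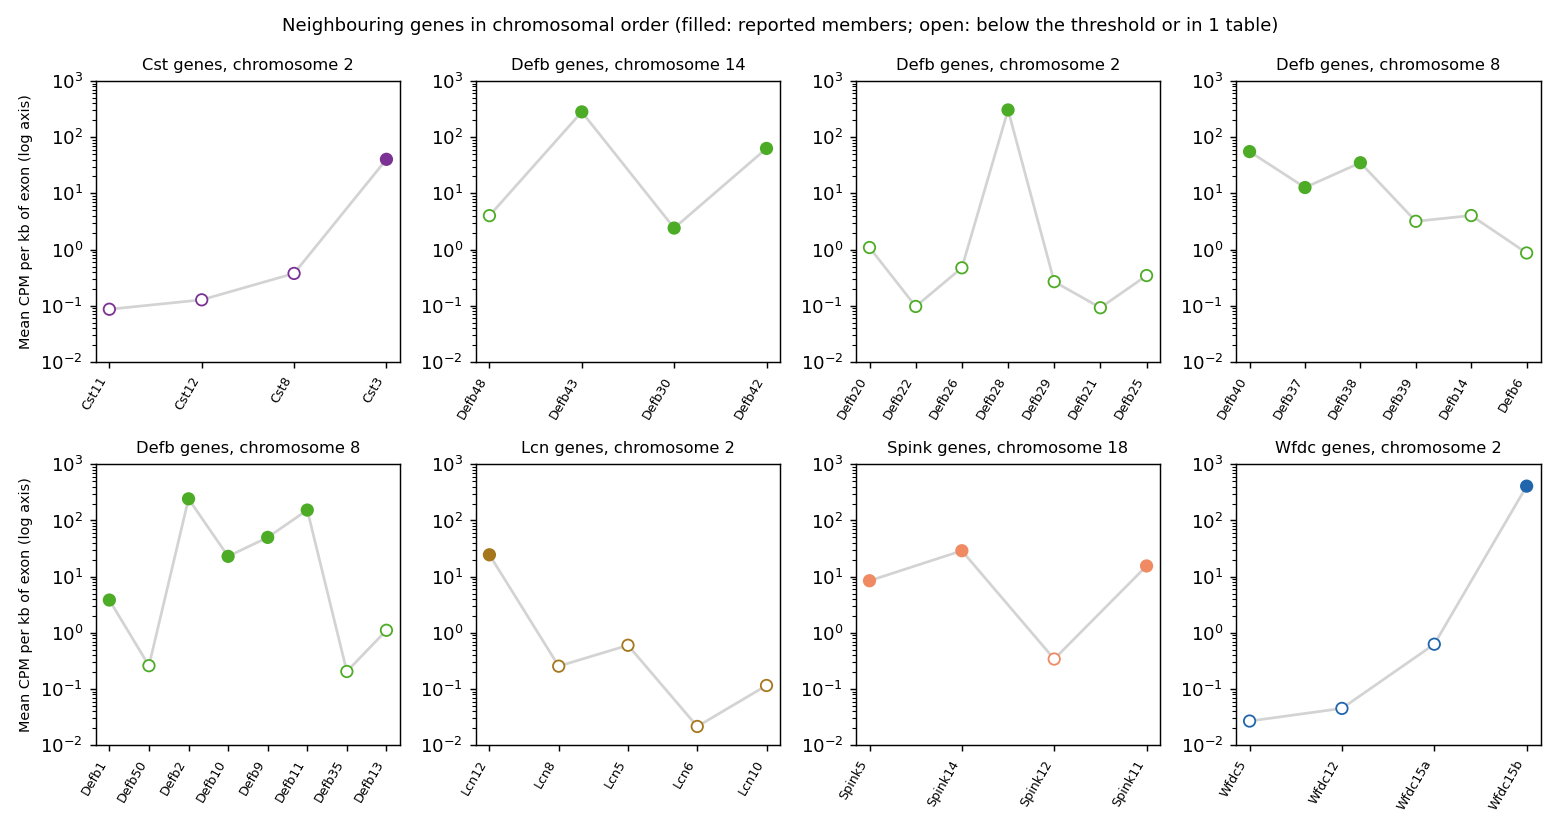
Mean level per length (CPM per kilobase of exon, log axis, 10 libraries of the selected table) of genes in chromosomal order for 8 clusters. Only family genes with an entry in that table are drawn, and lines join them only to guide the eye. Defb28, Cst3, Lcn12 and Wfdc15b are each the single filled point of their cluster, and in the Defb cluster holding Defb2, 5 of 8 genes are filled.

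Both tables come from the same libraries, so their ratio shows how the 2 runs represent each transcript. Over 9562 protein-coding entries with a mean count of 5 or more in the selected table and a count in both, the median ratio of mean CPM (selected over unselected) was 2.02, and over the 31 genes 2.11. Both sets were chosen by counts in the selected table, which leaves out entries that are low there. The medians and the share below therefore describe only the chosen entries. Crisp3 had a log2 ratio of -0.88, and 0.366% of the 9562 entries, 35, were lower. On that scale Wfdc13 was at -0.02 and Wfdc16 at 0.32, while Spink8 was at 1.60, Spink11 at 2.29 and Defb38 at 2.59. Crisp3 amounted to 3.63 to 5.14% of the Crisp1 count in MSUS and 2.91 to 4.97% in Control libraries of the selected table. In the other table it amounted to 12.6 to 17.2% in MSUS and 10.8 to 16.0% in Control libraries. The ranges of the tables did not overlap in either group, although 19% of the 22-base words of each gene are shared. Ratios of low genes rest on few counts in the unselected table, 10 for Defb38 and 15 for Spink11.

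**Figure D3:**
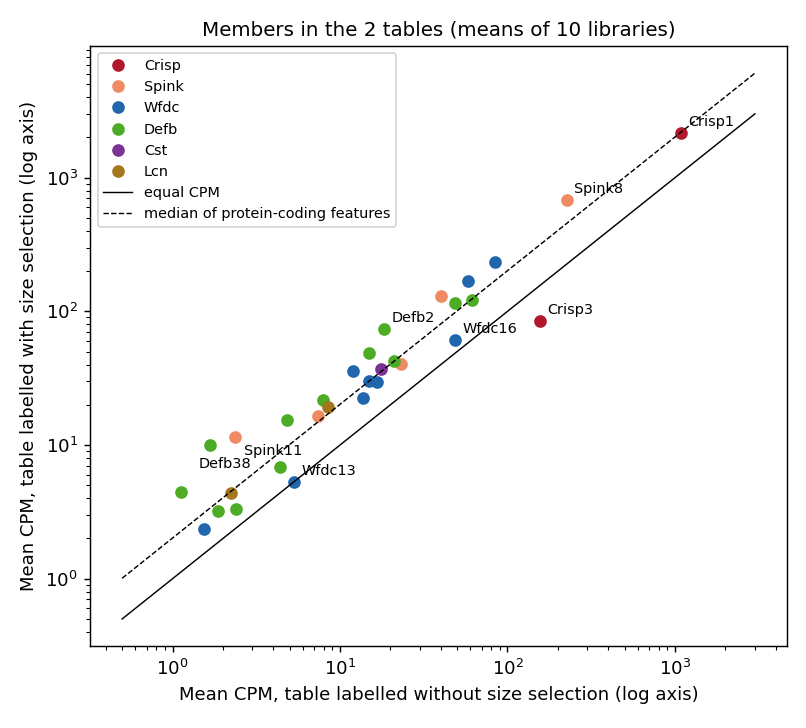
Mean CPM over 10 libraries of each of the 31 genes in the selected table (vertical) against the unselected table (horizontal), both on log axes. Most points lie near the dashed line, the median ratio of protein-coding entries, and Crisp3 lies below the line of equal CPM at a log2 ratio of -0.88.

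The study asked whether early life stress alters the RNA cargo of these vesicles. As a share of protein-coding counts, the 31 genes took 2.59, 1.82, 2.15, 1.68 and 2.36% in MSUS libraries, against 1.80, 1.75, 1.84, 2.66 and 2.24% in Control libraries of the selected table. The means were 2.12 ± 0.373% in MSUS and 2.06 ± 0.388% in Control libraries (SD, n = 5 each), and the ranges overlapped almost fully. In the other table the shares were 2.67, 2.07, 2.27, 1.82 and 2.55% in MSUS libraries, against 2.00, 1.87, 2.07, 2.43 and 2.49% in Control libraries. Their means were 2.28 ± 0.345% in MSUS and 2.17 ± 0.271% in Control libraries. MSUS 8 was lowest in the first table and again in the second, and MSUS 2, MSUS 14, Control 9 and Control 11 were the 4 highest in both.

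By family, Crisp took 1.12 ± 0.154% of protein-coding counts in MSUS and 1.11 ± 0.172% in Control libraries, and Spink 0.424 ± 0.0992% in MSUS and 0.430 ± 0.106% in Control libraries (SD, n = 5 each, selected table). Wfdc took 0.300 ± 0.0885% in MSUS and 0.272 ± 0.0817% in Control libraries, and Defb 0.243 ± 0.0535% in MSUS and 0.219 ± 0.0528% in Control libraries. For Cst3 the shares were 0.0205 ± 0.00362% in MSUS and 0.0175 ± 0.00306% in Control libraries, and for the 2 Lcn genes 0.0119 ± 0.00540% in MSUS and 0.0109 ± 0.00283% in Control libraries. Each difference of means was smaller than the larger of both SDs. In CPM of all counts, which also move with the other RNA classes, the 31 genes summed to 3411 ± 1789.7 CPM in MSUS and 5041 ± 2097 CPM in Control libraries, and 30 of the 31 had the lower mean CPM in MSUS. The share of protein-coding entries moved with that sum, as given above, and its part in it was not tested.

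**Figure D4:**
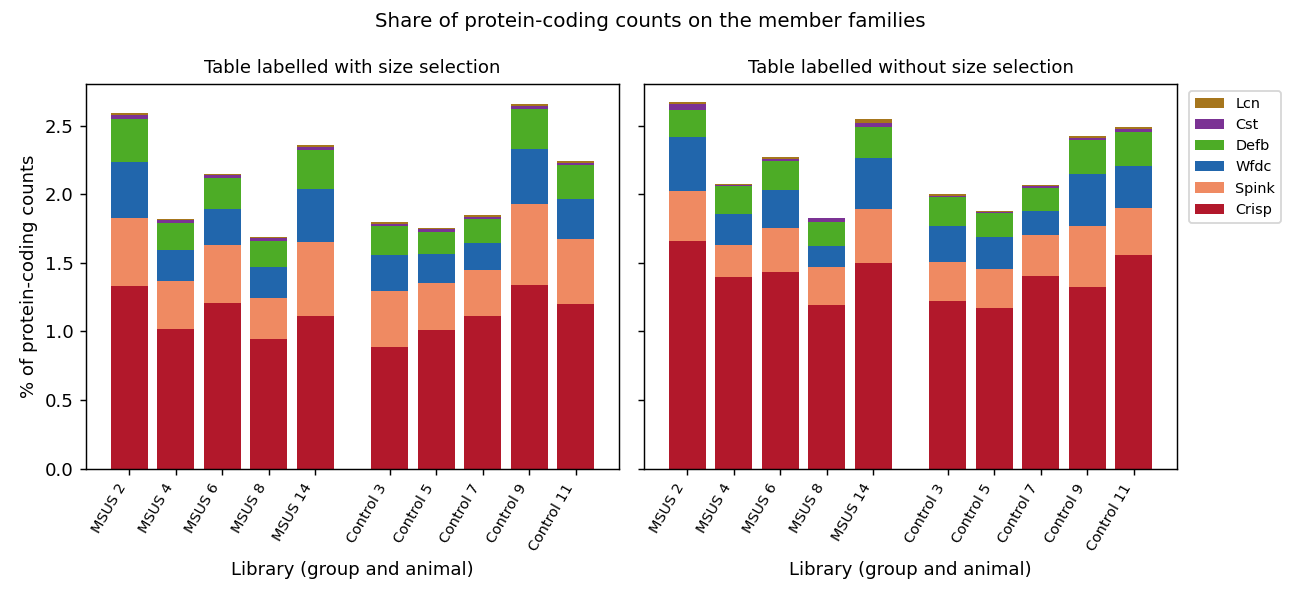
Percent of protein-coding counts on each family (stacked bars) in each library, with MSUS libraries left of Control libraries, for the selected table (left) and the unselected table (right). Stacks reach 1.68 to 2.59% in MSUS and 1.75 to 2.66% in Control libraries of the first, and Crisp is the largest part of each.

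No gene of these families differed between MSUS and Control past the threshold, in either table. With edgeR's quasi-likelihood test, 28 of the 31 genes passed the filter on low counts in the selected table (not Defb1, Defb30 and Wfdc17), and 0 had an adjusted p under 0.05, as had 0.00% of the 10998 entries tested. At an unadjusted p under 0.05, 0 of the 28 were counted, where 3.45% of all entries were higher in MSUS and 2.37% lower (379 and 261 entries). The smallest edgeR adjusted p among the 28 was 0.919. Limma voom called 0 of the 28 and 0.00% of entries, with a smallest adjusted p of 0.802 for Cst3. DESeq2 gave an adjusted p for only 7 of the 28 genes and 550 of the entries, and it called 0 of the 7, with a smallest adjusted p of 0.580 for Defb28, and 33 (6.0%) of the 550. TMM-scaled log2 fold changes ran from -0.14 to 0.35 with a median of 0.10, and 23 of 28 were above 0, while over all entries the median was -0.00 and 49.6% were above 0. Over protein-coding entries the median was -0.03 and 44.6% were above 0. Scaled by library size alone, all 28 were below 0 with a median of -0.45, against -0.57 for all entries, of which 2.71% were above 0. Scaled on protein-coding entries, 24 of 28 were above 0 with a median of 0.13, as were 55.0% of entries. No member's groups were free of overlap in TMM-scaled CPM, where 0.391% of entries had all MSUS libraries above and 0.482% all below the Control libraries.

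By family, the TMM-scaled medians in that table were 0.03 for Crisp, 0.06 for Spink, 0.09 for Wfdc, 0.11 for Defb, 0.14 for Lcn and 0.17 for Cst3. Estimates above 0 were 1 of 2 for Crisp, 3 of 5 for Spink, 7 of 8 for Wfdc, 9 of 10 for Defb, 2 of 2 for Lcn and 1 of 1 for Cst, and by library size alone 0 in each family. The positive median depended on single libraries. The median over the genes was 0.01 without MSUS 2, -0.03 without MSUS 14 and 0.26 without Control 9. In TMM-scaled CPM, MSUS 2 was the highest library for 10 of 28 genes, MSUS 14 for 9, Control 9 for 8 and Control 11 for 1. Without MSUS 14, Control 9 and Control 11, the median over the 25 genes still tested was 0.32. There 23 were above 0, against 50.8% of entries, 5 had an unadjusted p under 0.05, all higher in MSUS, as had 6.31% of entries, and 0 passed adjustment, with a smallest adjusted p of 0.388.

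Of the 31 genes, 9 passed the filter in the unselected table: Crisp1, Crisp3, Spink8, Spink10, Wfdc15b, Wfdc10, Wfdc16, Defb28 and Defb43. With edgeR 0 of the 9 had an adjusted p under 0.05, as had 0.00% of 1075 entries, and the smallest adjusted p was 0.592. None of the 9 had an unadjusted p under 0.05, where 3.81% of entries were higher and 4.00% lower in MSUS (41 and 43). The groups of each of the 9 overlapped in TMM-scaled CPM, where 0.186% of entries had all MSUS libraries above and 1.30% all below the Control libraries. DESeq2 and limma voom called 0 of the 9 and 0.00% of all entries. The TMM-scaled median was -0.14, from -0.58 to 0.03, with 2 of 9 above 0, while over all entries the median was 0.01 with 50.6% above 0. Protein-coding entries as a class had a median of -0.20 there, with 20.5% above 0. Scaled on protein-coding entries alone, the median of the 9 genes was 0.04 and 5 were above 0 (69.9% of all and 48.4% of protein-coding entries). By library size alone it was -0.43 and 0 were above 0 (24.6% of all and 2.90% of protein-coding entries). Without MSUS 14, Control 9 and Control 11, 1 of 9 was above 0 (46.1% of all and 12.9% of protein-coding entries). In that fit 0 had an unadjusted p under 0.05 (9.35% of entries were higher in MSUS). The sign of the group's median differed between the tables and between scalings.

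**Figure D5:**
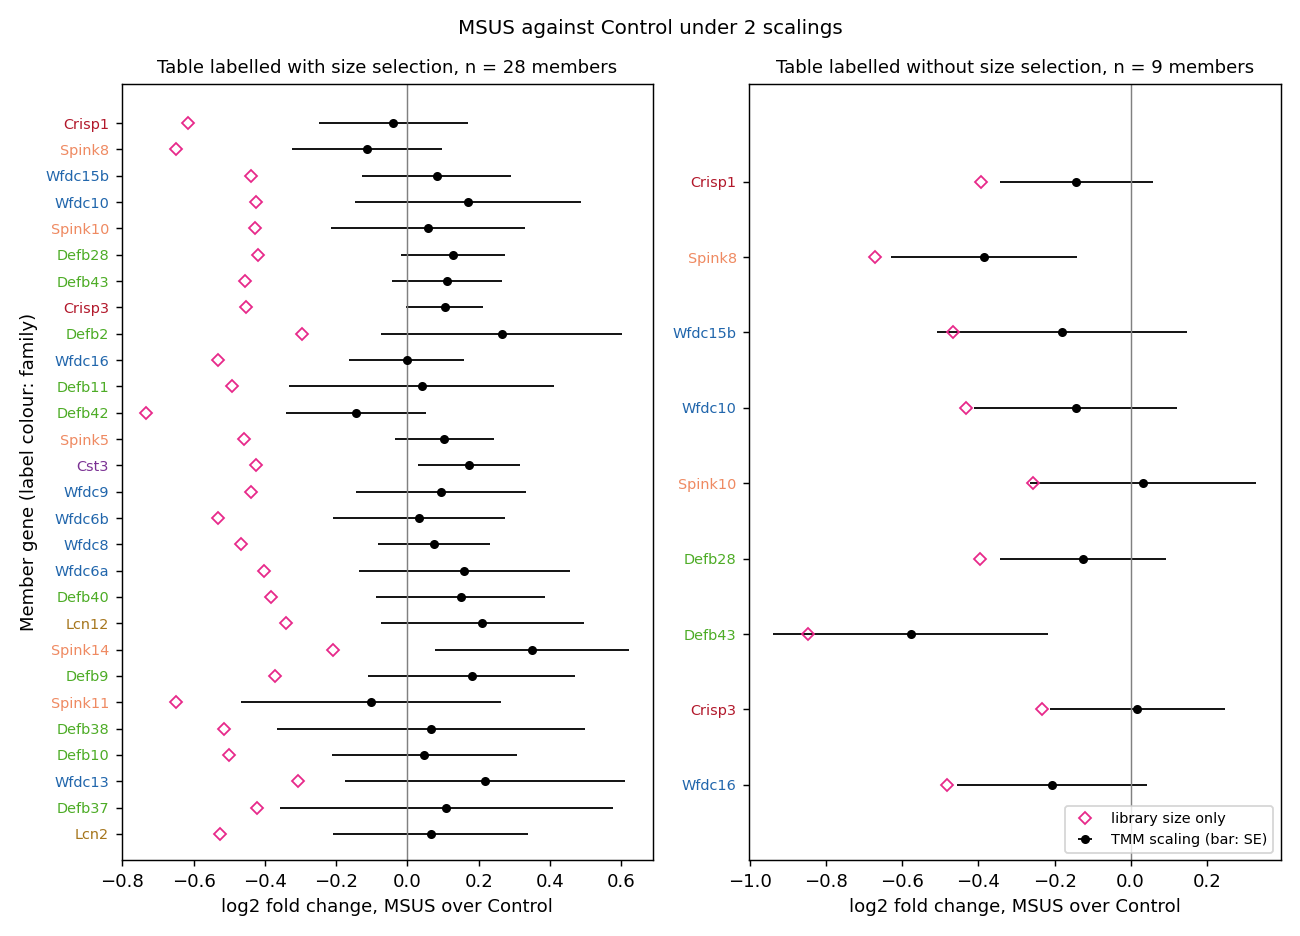
Log2 fold change of MSUS over Control for the 28 genes tested in the selected table (left) and the 9 tested in the other (right), after TMM scaling (filled, bar of 1 SE) and by library size alone (open). TMM-scaled values run from -0.14 to 0.35 on the left and from -0.58 to 0.03 on the right, and every value by library size alone is below 0.

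The difference of the MSUS effect between the tables was tested in all 20 samples. This first fit had no term for animal, so it left out that the runs are paired. Of 8109 entries, 0 had an adjusted p under 0.05 with edgeR (0.00%; 225 had an unadjusted p under 0.05), and neither did any of the 25 genes tested, at a smallest adjusted p of 1.00. For Defb43 the log2 fold change in the selected table was 0.61 ± 0.38 (SE) above that in the other (edgeR adjusted p = 1.00), for Spink8 0.22 ± 0.34 and for Crisp1 0.04 ± 0.31. With a block by animal, the values were 0.54 ± 0.33 for Defb43, 0.23 ± 0.20 for Spink8 and 0.05 ± 0.21 for Crisp1 (SE). In that fit 276 of 8109 entries had an unadjusted p under 0.05, and 0 passed adjustment. Of the 25 genes, 1 was among the 276, Wfdc13 at -1.55 ± 0.67 (SE), which had 25.1 counts in the unselected table.

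Other secreted or luminal proteins of the epididymis, outside the 6 families, were also without a called gene. Of 20 listed genes, 18 were in the selected table, 12 had a mean of 5 or more counts and 9 were tested, of which 0 passed the threshold. Cd52, a glycoprotein passed to sperm, had 1431 CPM per kilobase, next to Crisp1 at 1514, and averaged 595.8 ± 387 CPM in MSUS and 876 ± 494 CPM in Control libraries. Clu, an extracellular chaperone, averaged 307 ± 205 CPM in MSUS and 444 ± 85.8 CPM in Control libraries, and Serpina1f, a serpin of the epididymis, 294 ± 125 CPM in MSUS and 489 ± 169 CPM in Control libraries (SD, n = 5 each). TMM-scaled log2 fold changes were above 0 for 5 of the 9 tested, with a median of 0.06. Of all entries 49.6% were above 0 there, and of protein-coding entries 44.6%, with a median of -0.03. In the other table the listed genes had 0 of 6 above 0, with a median of -0.25. Protein-coding entries as a class were also mostly below 0 there, with 20.5% above 0 and a median of -0.20 (50.6% of all entries). By library size alone 0 of the listed genes were above 0 in either table. Of protein-coding entries 0.981% were above 0 by that scaling in the selected table, and 2.90% in the unselected table. Sperm markers of the selected table, 9 of 9 tested, had a TMM-scaled median of 0.50 and, by library size alone, of -0.13. Smooth muscle and stroma markers, 8 of 8 tested, had 0.45 and -0.06, and epididymal epithelium markers, 5 of 7 tested, 0.14 and -0.42. In the unselected table sperm markers, 3 of 9 tested, had a TMM-scaled median of 0.17. Smooth muscle and stroma markers there, 2 of 8 tested, had 0.13, and epididymal epithelium markers, 4 of 7 tested, -0.25. In neither table did a gene of these lists pass the threshold. The part of other cell types in the values of the secretory genes was not tested.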

How the data were processed

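Small RNA from cauda epididymosomes of 5 MSUS and 5 Control males was sequenced in 2 runs. Per the submitters' processing notes reads were processed with STAR and edgeR on GRCm38. The assignment of reads to entries and the use of strand are not given in the sources used here. The authors deposited estimated counts per entry in 2 tables, named selected and unselected after their labels, many values not whole. Columns were matched to samples by name and run.

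Estimated counts were rounded, which removed 0.0504 to 0.0992% and 0.266 to 0.689% of a library's counts in the selected and unselected table. Each table was fitted over all its entries with edgeR 4.0.16 in R 4.3.3: filterByExpr, the robust quasi-likelihood test after TMM scaling, Benjamini-Hochberg adjustment, threshold 0.05. SE were derived from its F statistic. Alternatives were library size alone, scaling on protein-coding entries, DESeq2 1.42.0, voom in limma 3.58.1, no filter, and leaving out libraries. The difference between tables was an interaction term over 20 samples. The runs are paired by animal number in the titles, and the block by animal was an alternative. The script was tested on simulated data. Within each table no libraries were duplicates: chi-square per degree of freedom between any pair of the same table was 9.80 or more. Pairs across the tables, which hold runs of the same libraries, were not compared.

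CPM were taken over all counts, and per kilobase of merged exons of GENCODE vM21. Limits given for a count of 0 cover counting error only, as reads carried no stated molecular identifiers, while SD and SE include the spread between animals. Values in every library are given for the 2 members of each family with the highest CPM per kilobase and the 2 with the smallest p in each direction in each table. The members, lists and rules were chosen with earlier results of these data known, so no list was tested as a set.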

Additional observations from a re-analysis of the deposited data

Results flagged for a closer look

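In 3 of 74 groups of 5 libraries checked among the tested genes, 1 library was separated from the other 4 by more than Dixon's 95% critical gap of 0.71 of the group's range. Chance flags about 1 group in 20. All 3 were in the selected table and are TMM-scaled CPM. Wfdc16 was highest in MSUS 14 at 74.4 TMM-scaled CPM, with the next MSUS library at 53.0 and the lowest at 44.9. Defb42 was lowest in MSUS 2 at 20.6 TMM-scaled CPM, with the next at 39.4 and the highest at 46.0 among MSUS libraries. Wfdc6a was highest in Control 9 at 32.0 TMM-scaled CPM, with the next Control library at 17.7 and the lowest at 13.3. MSUS 14 and Control 9 are 2 of the 3 libraries with a low share of transfer RNA.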

How the results depend on the processing

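The count of entries past the threshold in the selected table was 0, and became 33 with DESeq2 (of 550 entries with an adjusted p), 48 with no filter, 3 by library size alone and 0 to 2 when 1 library was left out, with 2 without Control 3. In the unselected table the 0 became 1 by library size alone and 2 without Control 9, Control 11 and MSUS 14, and stayed at 0 when 1 library was left out. No secretory gene was among these calls, though DESeq2 gave an adjusted p for only 7 of 28. For the difference between tables, the block by animal also gave 0 calls (276 entries at an unadjusted p under 0.05, against 225 with no block) and changed no call. Of the 28 secretory genes of the selected table, the log2 fold change turned sign for 23 by library size alone, 6 with voom, 5 with no filter, 3 without those 3 libraries (of 25) and 1 each with DESeq2 and scaling on protein-coding entries. Among the genes given in every library, it turned sign as follows; the cause was not tested. By library size alone, in the selected table, they were -0.45 for Crisp3, -0.43 for Cst3, -0.42 for Defb28, -0.46 for Defb43, -0.34 for Lcn12, -0.53 for Lcn2, -0.21 for Spink14, -0.44 for Wfdc15b, -0.43 for Wfdc10 and -0.43 for Spink10. In the unselected table they were -0.23 for Crisp3 and -0.26 for Spink10. Scaling on protein-coding entries gave 0.087 for Crisp1, 0.080 for Defb28 and 0.044 for Wfdc10 in the unselected table. In the selected table Lcn2 was -0.035 with DESeq2, -0.090 with voom and -0.0063 with no filter, and Spink10 -0.0031 with voom and -0.0041 with no filter. In the other, Crisp3 was -0.0076 with voom, and with no filter Crisp3 was -0.032 and Spink10 -0.033. Without Control 9, Control 11 and MSUS 14, Crisp1 was 0.13 and Spink8 0.045 in the selected table, and Crisp3 -0.095, Wfdc10 0.11 and Spink10 -0.088 in the other. Leaving out 1 library at a time gave, in the selected table, -0.11 to 0.032 for Crisp1, -0.21 to 0.032 for Defb42, -0.031 to 0.19 for Defb43, -0.016 to 0.42 for Lcn12, -0.47 to 0.18 for Lcn2, -0.15 to 0.23 for Spink10, 0.12 to 0.50 (no change of sign) for Spink14, -0.20 to 0.025 for Spink8, -0.063 to 0.46 for Wfdc10 and -0.033 to 0.20 for Wfdc15b. In the other it gave -0.12 to 0.10 for Crisp3, -0.16 to 0.18 for Spink10, -0.29 to 0.023 for Wfdc10 and -0.51 to 0.011 for Wfdc15b. Thresholds of 10 and 2 on the mean count gave 28 and 38 members, against 31. In the unselected table a total of 3 counts is worth 3.44 to 13.9 CPM, and 9 of the 31 genes passed the filter.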

Other observations

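The 17 genes of both tables below the threshold, low by the rule that set them apart, had 0.027 to 4.02 CPM per kilobase in the selected table. The highest, Defb48, lay above Lcn2 (3.54), Defb1 (3.84) and Defb30 (2.42) per length, and Defb48, Wfdc11 and Crisp4 had a count in all 10 libraries. Crisp4, known from the caput of the mouse epididymis, had a mean of 2.2 counts per library in the selected table, Spink2 3.7, Spink13 4.3 and Wfdc11 4.5. Wfdc2, which is not 1 of the 17 and is listed only in the selected table, had 0.275. Spink13 averaged 1.10 ± 0.811 CPM in MSUS and 1.88 ± 1.38 CPM in Control libraries, and Wfdc11 averaged 1.16 ± 0.770 CPM in MSUS and 2.23 ± 0.718 CPM in Control libraries (SD, n = 5 each). Defb48, next to Defb43 and with 4.02 CPM per kilobase against 282 for Defb43, averaged 1.27 ± 0.507 CPM in MSUS and 2.31 ± 0.968 CPM in Control libraries. Defb20 averaged 1.06 ± 0.369 CPM in MSUS and 0.441 ± 0.467 CPM in Control libraries from 20 counts in all. A count of 0 allows up to 0.822 to 1.60 CPM per library in that table, and these levels were not compared.

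The proportion of Spink8 to Crisp1, the 2 leading transcripts, was 28.9, 28.2, 28.5, 25.9 and 37.9% of the Crisp1 count in MSUS libraries, against 36.4, 28.7, 25.4, 36.0 and 31.2% in Control libraries of the selected table. In the other table it was 18.2, 13.8, 17.1, 20 and 22.9% in MSUS libraries, against 18.9, 23.2, 17.7, 30.3 and 19.9% in Control libraries. The groups overlapped in both tables. Wfdc10 had 391 to 564% of the Wfdc9 count in MSUS and 375 to 559% in Control libraries of the selected table.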
